A study of Mus musculus with 16 samples.

Results

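WT host cells of 2 mesodermal cell types were compared between embryonic day (E) 7.5 and E8.5, the day over which the mouse embryo passes from gastrulation to early organogenesis. The cells were those sorted as tdTomato-negative from chimeric embryos, with no tdTomato UMI, no doublet call and a pass of the authors' quality filter, in cell types with over 15 cells in every library of both stages. Of 83 cell types found in WT cells at these stages, 2 met this rule, Lateral plate mesoderm with 423 cells and Mesenchyme with 426. These 849 cells were drawn from 8875 WT cells at E7.5 and E8.5 and from 37841 analysed cells in the series. The choice used the sort, the filters, the cell type label and cell numbers, and no difference between the stages.

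The embryos were chimeras of CD1 host blastocysts injected with tdTomato-expressing *Stat3* null ESCs, and the host cells carried no engineered allele but developed beside null cells. Several embryos were pooled before sorting at both stages, and each stage had 2 WT libraries of droplet 3′ single-cell RNA and 2 *Stat3* null libraries sorted as tdTomato-positive. E7.5 embryos had been classed as large or small, and which library held which class could not be told from the labels. Libraries are called A and B within a group, and a letter is only a name.

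The lateral plate mesoderm flanks the axis of the embryo and gives rise to the heart, the body wall, the limb buds and the mesoderm of the gut. Mesenchyme is the atlas name for loose mesoderm that expresses *Hand1*, *Ahnak* and collagen genes. Both descend from epiblast cells that leave the primitive streak. In mesoderm at large, *Hox* genes, retinoic acid and signalling ligands are known to take part in regional identity.

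Over that day both types lost RNA of *Pou5f1* and *Fgf3*, and Lateral plate mesoderm that of *Mesp1*. Both gained RNA of mesodermal regulators, such as *Prrx1* and *Nr2f2*, and of *Hox* genes. Mesenchyme also gained RNA of matrix and secreted proteins, such as *Postn*, *Ptn*, *Wnt2* and *Sfrp1*, while Lateral plate mesoderm lost RNA of *Hand1*, *Ahnak* and cardiac regulators. A change within cells and a change in which cells carry a label cannot be told apart in these comparisons. No gene passed the test for a difference in these changes between host and *Stat3* null cells of the same types.

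In the order E7.5 A, E7.5 B, E8.5 A and E8.5 B, Lateral plate mesoderm held 52, 208, 63 and 100 cells, and Mesenchyme held 82, 82, 102 and 160. Summed over the cells of a type, a library had between 1951741 and 6363492 UMIs. The median cell carried 18241 to 39535.5 UMIs, and E8.5 B was the shallowest library in both types. Averaged over the types, UMIs per cell, genes per cell and the mitochondrial percent overlapped between the stages (exact two-sided permutation test, p = 0.667 for each of the 3). Within Lateral plate mesoderm the median mitochondrial percent did not overlap, at 1.645 and 1.13 at E7.5 and 0.97 and 1.11 at E8.5. No cell barcode was shared between libraries among these cells. Libraries of a stage did not repeat each other (chi-square of their counts, divided by its degrees of freedom, 23.8 at E7.5 and 58.3 at E8.5). With 2 libraries a stage, p-values measure the spread between these libraries only.

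The labels were checked against markers. Lateral plate mesoderm markers *Foxf1*, *Hand2* and *Bmp4* were present in every library of both types, and *Foxf1* in Lateral plate mesoderm stood at 148 and 140.5 CPM at E7.5 and 108 and 136 CPM at E8.5. In Mesenchyme *Foxf1* stood at 154 and 164 CPM at E7.5 and 51.3 and 76.3 CPM at E8.5. It was called lower (log2 fold change -1.28, SE 0.17, edgeR adjusted p = 1.83e-04). That call was lost with equal cell numbers and with every library of the type in the fit (edgeR adjusted p = 0.1145 and 0.117). Here and below, the latter fit also held the *Stat3* null and E9.5 libraries with enough cells of the type. *Hand1*, a marker of both types, was lower at E8.5 than at E7.5 and in Lateral plate mesoderm stood at 769 and 619 CPM at E7.5 and 101 and 133 CPM at E8.5. *Ahnak*, a marker of Mesenchyme, stood at 785 and 663 CPM at E7.5 and 683 and 614 CPM at E8.5 in Mesenchyme, and at 162 and 203 CPM at E7.5 and 18.1 and 18.96 CPM at E8.5 in Lateral plate mesoderm. The Mesenchyme marker *Postn* was scarce in Mesenchyme at E7.5 and abundant at E8.5, and was near 0 in every library of Lateral plate mesoderm. At E7.5 the Mesenchyme marker *Col1a1* stood at 140.5 and 89.7 CPM in Mesenchyme and 63.6 and 27.3 CPM in Lateral plate mesoderm. *Hand1*, *Foxf1* and *Bmp4* are on the marker lists of both types.

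As shares of all WT cells, Lateral plate mesoderm made up 9.43% ± 3.16 at E7.5 and 2.55% ± 0.10 at E8.5 (SD, n = 2 libraries each, log2 fold change after TMM scaling of cell numbers -1.42, edgeR adjusted p = 0.124). Mesenchyme made up 7.97% ± 4.77 and 4.10% ± 0.12 (log2 fold change -0.33, edgeR adjusted p = 0.602). With library totals in place of TMM the log2 fold changes were -1.89 and -0.95 (edgeR adjusted p = 0.181 and 0.493). Neither passed the test, which called 36 of 74 types, and the 2 E7.5 libraries differed widely in both shares. Both types were chosen for their cell numbers in every library, so a type absent at 1 stage could not be among them. The 36 calls are therefore no measure for these 2 types. Without E7.5 A the share of Lateral plate mesoderm passed (log2 fold change -1.84, edgeR adjusted p = 2.98e-15). Without E7.5 B the share of Mesenchyme passed (log2 fold change -0.52, edgeR adjusted p = 0.0126), and without E7.5 A its change turned positive.

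The authors matched every cell to an atlas of staged embryos, and the atlas stage was not part of the choice of cells. In Lateral plate mesoderm the mean atlas stage was E7.73 and E7.56 in the E7.5 libraries A and B and E8.52 and E8.40 in the E8.5 libraries. In Mesenchyme it was E7.84 and E7.66 against E8.87 and E8.58. Averaged over the types the difference was 0.894 days, and the E8.5 libraries lay above the E7.5 libraries in both types (exact two-sided permutation test, p = 0.333, the smallest that 2 against 2 libraries can give). The atlas stages of the match began at E7.5, so cells could not map earlier, and 80.3% of the Lateral plate mesoderm cells of E7.5 B lay at that stage. In both types and at both stages library A mapped later than library B.

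**Figure D1:**
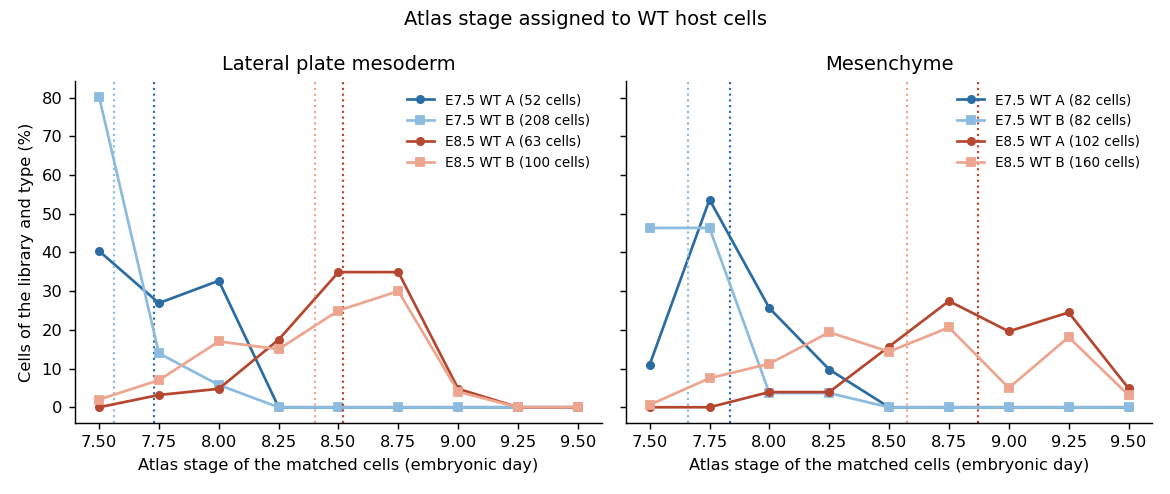
Share of the cells of each library (%, vertical axis) matched to each atlas stage (embryonic day, horizontal axis) in Lateral plate mesoderm and Mesenchyme. Points are joined by library, and dotted lines mark the mean of each library. The E7.5 libraries have means between E7.56 and E7.84 and the E8.5 libraries between E8.40 and E8.87, and 26.0% of Lateral plate mesoderm cells of E8.5 B were matched to E8.0 or earlier.

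To ask which genes moved with stage within a cell type, UMIs were summed per library and type and tested with the quasi-likelihood test of edgeR (log2 fold change of E8.5 over E7.5, called at an adjusted p under 0.05 and an absolute log2 fold change over 1). Levels are given as CPM, UMIs per 1000000 UMIs of the type in the library, with library A before library B. Lateral plate mesoderm had 755 calls among 8895 genes tested (8.49%), 382 higher (4.29%) and 373 lower (4.19%) at E8.5. Mesenchyme had 831 among 9659 (8.6%), 591 higher (6.12%) and 240 lower (2.48%). Without the fold threshold the share of higher genes in Mesenchyme was 56.3%, against 71.1% with it. In all of the 755 and 831 calls both E8.5 libraries lay beyond both E7.5 libraries. Of all genes tested, 23.3% in Lateral plate mesoderm and 29.9% in Mesenchyme had both E8.5 libraries above both E7.5 libraries, and 37.9% and 33.0% had them below. Leaving out E7.5 B lowered the calls in Lateral plate mesoderm to 465, and leaving out E8.5 A lowered them to 498.

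The types shared part of the change. Both were drawn from the same libraries, so what differs between libraries is common to both. In both, 150 genes were higher (39.3% of the higher genes of Lateral plate mesoderm and 25.4% of those of Mesenchyme) and 97 were lower (26.0% and 40.4%). When both types were thinned to equal UMIs in each library and summed, 833 of 10166 genes were called (8.19%), 556 higher (5.47%) and 277 lower (2.72%). The 10 with the largest rise were *Hoxaas3*, *Hoxb5os*, *Postn*, *Dcn*, *Igfbp5*, *Ptn*, *Npnt*, *Prrx1*, *Mab21l2* and *Hoxa9*, and the 10 with the largest fall *Mesp1*, *Fgf3*, *Pou5f1*, *Flt1*, *Fgf15*, *Ptpn18*, *Apoe*, *Cfc1*, *Pwwp2b* and *Tmem238*. Of these, *Dcn*, *Postn* and *Apoe* lost their call without at least 1 library. Without the fold threshold 55.2% of the calls in that sum were higher, against 66.7% with it.

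The 10 genes with the largest rise in Lateral plate mesoderm included *Prrx1*, *Nr2f2* and *Osr1*, which encode transcription factors. *Prrx1*, a homeobox gene of limb and body wall mesenchyme (chromosome 1, 163245119 to 163313710, GRCm38), stood at 4.85 and 4.87 CPM at E7.5 and 132 and 111 CPM at E8.5 (log2 fold change 4.72, SE 0.21, edgeR adjusted p = 7.60e-12). *Nr2f2*, an orphan nuclear receptor gene (chromosome 7, 70351944 to 70366735), stood at 2.43 and 2.36 CPM at E7.5 and 86.1 and 66.1 CPM at E8.5 (log2 fold change 5.07, SE 0.27, edgeR adjusted p = 9.17e-11). *Osr1*, a zinc finger gene of intermediate and lateral mesoderm, stood at 3.88 and 2.20 CPM at E7.5 and 44.3 and 60.5 CPM at E8.5 (log2 fold change 4.37, SE 0.30, edgeR adjusted p = 3.49e-09). The libraries of a stage lay close together for these 3 genes and far from the other stage. In Mesenchyme *Osr1* was near the floor, at 0 and 0.423 CPM at E7.5 and 4.05 and 3.60 CPM at E8.5. Its rise there was called by edgeR and not by DESeq2.

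The rise was spread over cells. With all cells thinned to 10000 UMIs, *Prrx1* was found in 3.85% of the cells of either E7.5 library and in 55.6% and 50% of the cells of the E8.5 libraries. In Erythroid cells of the E8.5 libraries, a type that should lack *Prrx1*, its share was 1.17% and 0.643%. *Nr2f2* was found in 5.77% and 2.40% of cells at E7.5 and in 52.4% and 42.0% at E8.5, against 1.88% and 4.82% of Erythroid cells. Detection of both genes at E8.5 lay far above that in Erythroid cells. The median Erythroid cell carried 42665 and 25352.5 UMIs before thinning.

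The remaining genes of this group were *Ndnf*, which encodes a secreted factor, *Tmem132c*, and 5 RNAs of *Hox* clusters. *Ndnf* stood at 2.91 and 2.20 CPM at E7.5 and 58.4 and 44.1 CPM at E8.5 (log2 fold change 4.49, SE 0.30, edgeR adjusted p = 2.62e-09). *Hoxb5os*, an RNA transcribed opposite to the *Hoxb* genes, stood at 2.91 and 0.629 CPM at E7.5 and 182 and 169 CPM at E8.5 (log2 fold change 7.23, SE 0.28, edgeR adjusted p = 1.17e-10) and was found in 71.4% and 70.0% of E8.5 cells after thinning. *Hoxaas3*, from the opposite strand of the *Hoxa* cluster, stood at 6.31 and 0.629 CPM at E7.5 and 373 and 330.0 CPM at E8.5 (log2 fold change 7.46, SE 0.66, edgeR adjusted p = 0.0174). Its E7.5 libraries differed, with A above B, as did those of *Hoxa9* and *Hoxc6*. Leaving out either E8.5 library ended the call of these 3 RNAs, with an adjusted p of 0.180 and 0.156 for *Hoxaas3*, 0.287 and 0.255 for *Hoxa9* and 0.162 and 0.155 for *Hoxc6* (edgeR, without E8.5 A and B). The other 7 kept their call when any of the 4 libraries was left out. Reads of a gene and of an RNA on its opposite strand can be told apart only by strand, and the strand setting of the counting was not given in the sources used here.

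The 10 genes with the largest fall in Lateral plate mesoderm included *Mesp1*, *Pou5f1* and *T*, RNAs of the epiblast and of newly formed mesoderm. *Mesp1*, a transcription factor gene of nascent mesoderm (chromosome 7, 79792241 to 79793788), stood at 109 and 143 CPM at E7.5 and 0 and 1.54 CPM at E8.5 (log2 fold change -7.23, SE 0.40, edgeR adjusted p = 7.51e-08). *Pou5f1*, the pluripotency factor Oct4 (chromosome 17, 35506018 to 35510772), stood at 97.5 and 127 CPM at E7.5 and 1.51 and 5.64 CPM at E8.5 (log2 fold change -4.90, SE 0.31, edgeR adjusted p = 2.95e-07). *T*, the streak and nascent mesoderm factor Brachyury, stood at 23.8 and 33.5 CPM at E7.5 and 0.504 and 3.59 CPM at E8.5 (log2 fold change -3.75, SE 0.44, edgeR adjusted p = 2.19e-05). In each case the E8.5 libraries were near the floor of detection, and E8.5 B, which mapped to an earlier atlas stage than E8.5 A, was the higher.

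*Mesp1* was found in 40.4% and 41.4% of E7.5 cells after thinning and in 0% (0 of 63, which allows up to 4.76%) and 1.00% of E8.5 cells. In ExE ectoderm of the E7.5 libraries, a type that should lack *Mesp1*, its share was 1.75% and 10.2%. For *T* the share in E7.5 cells (17.3% and 23.1%) was close to that in ExE ectoderm (10.53% and 21.6%), so detection per cell did not separate these types. Mesenchyme of the same E7.5 libraries held *T* at 3.15 and 5.92 CPM, below Lateral plate mesoderm. Whether the *T* found in ExE ectoderm is background was not tested. The CPM of *T* in Lateral plate mesoderm differed between the stages. The median ExE ectoderm cell carried 44205 and 34184 UMIs before thinning.

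*Fgf3*, an FGF ligand gene, stood at 124 and 148 CPM at E7.5 and 0 and 6.66 CPM at E8.5 in Lateral plate mesoderm (log2 fold change -5.27, SE 0.68, edgeR adjusted p = 0.0228). *Apoe*, which encodes a lipid carrier protein made in quantity by the visceral endoderm, stood at 256 and 359 CPM at E7.5 and 17.1 and 21.01 CPM at E8.5 (log2 fold change -3.94, SE 0.20, edgeR adjusted p = 6.90e-08). *Flt1*, a VEGF receptor gene, stood at 18.4 and 25.1 CPM at E7.5 and 1.01 and 2.05 CPM at E8.5 (log2 fold change -3.76, SE 0.43, edgeR adjusted p = 3.27e-06). *Vrtn*, *Pwwp2b*, *Gata4* and *Cfc1*, which encodes a co-receptor of Nodal, completed the group. *Cfc1* lost its call without E7.5 B (edgeR adjusted p = 0.114), with all genes kept (0.056), with tdTomato-UMI cells kept (0.0596) and with every library of the type in the fit (0.0885). DESeq2 called none of *Cfc1* (adjusted p = 0.359), *Fgf3* (adjusted p = 0.136) and *Gata4* (adjusted p = 0.364). The other falls were called whichever library was left out.

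In Mesenchyme the 10 genes with the largest rise included *Postn*, *Ptn*, *Igfbp5* and *Col11a1*, which encode matrix or secreted proteins. *Postn*, which encodes the matrix protein periostin (chromosome 3, 54361109 to 54391037), stood at 5.67 and 5.92 CPM at E7.5 and 636 and 331 CPM at E8.5 (log2 fold change 6.40, SE 0.62, edgeR adjusted p = 0.017). *Ptn*, which encodes the growth factor pleiotrophin, stood at 5.04 and 0.846 CPM at E7.5 and 248 and 175 CPM at E8.5 (log2 fold change 6.04, SE 0.43, edgeR adjusted p = 6.05e-04). *Igfbp5*, which encodes a carrier of insulin-like growth factors, stood at 1.57 and 2.54 CPM at E7.5 and 128 and 71.7 CPM at E8.5 (log2 fold change 5.64, SE 0.46, edgeR adjusted p = 3.25e-04). For all 3, E8.5 A was above E8.5 B, and both lay far above E7.5.

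*Postn* was found in 1.22% and 3.66% of Mesenchyme cells at E7.5 and in 54.9% and 51.9% at E8.5 after thinning, against 1.64% and 0.643% of Erythroid cells. *Plagl1*, an imprinted zinc finger gene, stood at 9.45 and 1.27 CPM at E7.5 and 209 and 149 CPM at E8.5 (log2 fold change 4.94, SE 0.61, edgeR adjusted p = 0.0211). *Mab21l2*, *Col11a1*, *Slc1a3* and *Hoxb5os* rose by log2 fold changes of 5.12, 4.99, 4.96 and 4.81. *Egr1*, an immediate-early gene, and *Ppp2r2b* had no UMI in either E7.5 library and 28.1 and 28.5 CPM on average at E8.5, at least 51.9-fold and 52.6-fold higher (a floor of 3 UMIs over the stage). All 10 kept their call whichever library was left out. With no filter on low counts *Postn* was not called (edgeR adjusted p = 0.0541).

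The falls of Mesenchyme were led by FGF ligands. *Fgf3* (chromosome 7, 144838083 to 144844436) stood at 156 and 147 CPM at E7.5 and 1.69 and 1.64 CPM at E8.5 (log2 fold change -6.45, SE 0.23, edgeR adjusted p = 6.92e-11). *Fgf15* stood at 68.3 and 63.5 CPM at E7.5 and 1.35 and 1.64 CPM at E8.5 (log2 fold change -5.40, SE 0.28, edgeR adjusted p = 8.83e-09). *Fgf3* was found in 62.2% and 61.0% of Mesenchyme cells at E7.5 and in 1.96% and 1.88% at E8.5. In ExE ectoderm of the E7.5 libraries its share was 0% (0 of 114 cells, which allows up to 2.63%) and 4.19%. The E8.5 share was near background, which was 0.235% and 3.22% in Erythroid cells of the same libraries.

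*Flt1* in Mesenchyme stood at 89.1 and 64.7 CPM at E7.5 and 1.35 and 4.91 CPM at E8.5 (log2 fold change -4.57, SE 0.35, edgeR adjusted p = 2.06e-05). *Pou5f1* stood at 28.03 and 60.1 CPM at E7.5 and 0.675 and 3.60 CPM at E8.5 (log2 fold change -4.27, SE 0.74, edgeR adjusted p = 0.0224), a lower level at E7.5 than in Lateral plate mesoderm of the same libraries. *Cdx2*, a caudal homeobox gene, stood at 105 and 79.1 CPM at E7.5 and 9.12 and 11.8 CPM at E8.5 (log2 fold change -3.11, SE 0.21, edgeR adjusted p = 1.54e-07). *Egln3*, an oxygen-sensing prolyl hydroxylase, *Polg*, the mitochondrial DNA polymerase, *Ddah1*, *Ydjc* and *Arhgdig* had log2 fold changes of -2.61, -2.48, -2.41, -2.27 and -3.06. These 10 falls also held whichever library was left out. With the same number of cells per library *Polg* was not called (edgeR adjusted p = 0.0561).

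**Figure D2:**
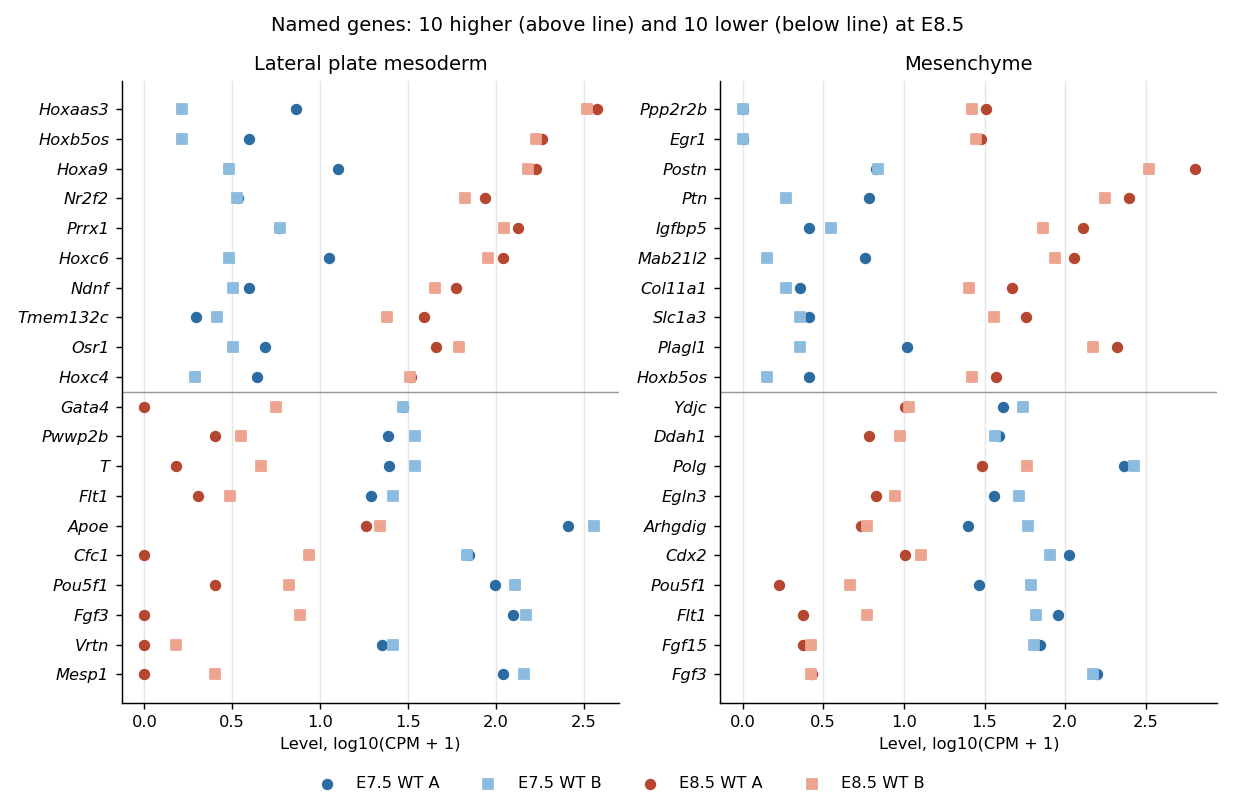
Level of the 10 genes with the largest rise and the 10 with the largest fall from E7.5 to E8.5 in each cell type (horizontal axis, log10 of CPM + 1), with 1 point per library. The E8.5 points lie to the right of the E7.5 points above the line and to the left below it, as the choice of genes required, and *Hoxaas3*, *Hoxa9* and *Hoxc6* in Lateral plate mesoderm and *Plagl1* and *Mab21l2* in Mesenchyme show wide gaps between the E7.5 libraries.

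Gene lists were read against the share of all genes called. Of 20 listed epiblast and pluripotency genes 9 could be tested in each type. Of these 6 fell in Lateral plate mesoderm (median log2 fold change -2.43, against -0.01 over all genes tested) and 5 in Mesenchyme (-1.96, against 0.01), and none rose. Genes such as *Pou5f1*, with 201 and 811 UMIs at E7.5 and 3 and 11 at E8.5 in Lateral plate mesoderm, passed the filter on low counts through E7.5. Such genes could only fall, so the filter bears on the lack of rises and on the medians. Without E7.5 A or E8.5 B, 8 fell in Mesenchyme. *Dnmt3b*, the de novo DNA methyltransferase of the epiblast, stood at 114 and 152 CPM at E7.5 and 20.2 and 27.2 CPM at E8.5 in Lateral plate mesoderm (log2 fold change -2.43, SE 0.18, edgeR adjusted p = 6.65e-08). In Mesenchyme it stood at 80.0 and 139 CPM at E7.5 and 24.3 and 24.5 CPM at E8.5 (log2 fold change -2.12, SE 0.27, edgeR adjusted p = 0.00149). *Sall4*, a zinc finger gene of pluripotent and early mesodermal cells, stood at 123 and 152 CPM at E7.5 and 30.4 and 38.9 CPM at E8.5 in Mesenchyme (log2 fold change -1.96, SE 0.16, edgeR adjusted p = 1.49e-06) and at 219 and 194 CPM at E7.5 and 136 and 106 CPM at E8.5 in Lateral plate mesoderm, where it did not reach the fold threshold.

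Of the primitive streak and nascent mesoderm list, 5 of 8 tested fell in Lateral plate mesoderm, namely *Mesp1*, *T*, *Mixl1*, *Fgf8* and *Aplnr*, and 3 of 5 fell in Mesenchyme, namely *Wnt3*, *Aplnr* and *Evx1*. *Fgf8* stood at 20.4 and 11.9 CPM at E7.5 and 1.01 and 2.05 CPM at E8.5 in Lateral plate mesoderm (log2 fold change -3.19, SE 0.51, edgeR adjusted p = 1.85e-04). *Mixl1* and *Aplnr* lost their call there without E7.5 B (edgeR adjusted p = 0.124 and 0.0589). In Mesenchyme 5 of the list fell without E7.5 A. The other listed genes of the 21 did not pass the filter on low counts. Genes that passed it only through E7.5, such as *Mesp1*, could only fall.

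Caudal and mesodermal regulators moved the other way, with 9 of 23 higher and 1 lower in Lateral plate mesoderm and 12 of 21 higher and 2 lower in Mesenchyme. Members that passed the filter on low counts only through E8.5, such as *Osr1* in Mesenchyme, could only rise. Without E7.5 A, 14 were higher in Lateral plate mesoderm. *Prrx1* in Mesenchyme stood at 4.41 and 0.846 CPM at E7.5 and 78.3 and 72.0 CPM at E8.5 (log2 fold change 4.72, SE 0.31, edgeR adjusted p = 7.40e-07). *Meis1*, a cofactor of Hox proteins, stood at 6.61 and 5.50 CPM at E7.5 and 87.4 and 62.5 CPM at E8.5 in Mesenchyme (log2 fold change 3.63, SE 0.24, edgeR adjusted p = 1.54e-07) and at 18.4 and 17.1 CPM at E7.5 and 44.3 and 37.9 CPM at E8.5 in Lateral plate mesoderm (log2 fold change 1.31, SE 0.21, edgeR adjusted p = 1.88e-04), a call lost when every library of the type was in the fit (edgeR adjusted p = 0.0630). *Twist1*, a bHLH gene of mesenchyme, stood at 22.0 and 21.6 CPM at E7.5 and 359 and 346 CPM at E8.5 in Mesenchyme (log2 fold change 4.04, SE 0.13, edgeR adjusted p = 4.23e-11). In Lateral plate mesoderm *Twist1* was already at 77.6 and 43.2 CPM at E7.5 and 183 and 128 CPM at E8.5 and did not pass the test (log2 fold change 1.54, SE 0.43, edgeR adjusted p = 0.135).

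*Hox* genes give cells their position along the axis, and each of the 4 clusters is switched on in order from its 3′ end, so that high paralog numbers come later and more caudally. Of 39 *Hox* genes in the matrix, 32 could be tested in Lateral plate mesoderm, where 15 rose and 1, *Hoxb1*, fell, and the fitted change was positive for 31. In Mesenchyme 24 could be tested, where 8 rose and 1, *Hoxa10*, fell, and it was positive for 20. Some of these genes passed the filter on low counts only through E8.5, such as *Hoxa3* in Lateral plate mesoderm and *Hoxa7* in Mesenchyme. Such genes could only rise, so the filter bears on the counts of rises and of positive changes. Both E8.5 libraries lay above both E7.5 libraries for 25 of the 32 and 17 of the 24, against 23.3% and 29.9% of all genes tested. Of all genes tested, 4.29% were called higher in Lateral plate mesoderm and 6.12% in Mesenchyme.

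Among the *Hox* genes of groups 1 to 4, 7 of 11 rose in Lateral plate mesoderm and 3 of 9 in Mesenchyme. *Hoxb2* stood at 55.8 and 40.2 CPM at E7.5 and 47.4 and 46.1 CPM at E8.5, and was not called. *Hoxa3* stood at 1.46 and 0.314 CPM at E7.5 and 17.6 and 13.3 CPM at E8.5 (log2 fold change 4.67, SE 0.53, edgeR adjusted p = 2.92e-06). *Hoxc4* stood at 3.40 and 0.943 CPM at E7.5 and 31.7 and 31.3 CPM at E8.5 (log2 fold change 4.35, SE 0.39, edgeR adjusted p = 3.00e-07), and *Hoxb3* at 6.31 and 5.50 CPM at E7.5 and 18.6 and 26.1 CPM at E8.5 (log2 fold change 2.04, SE 0.31, edgeR adjusted p = 8.42e-05). *Hoxb1* fell, from 67.9 and 39.1 to 10.1 and 20.5 CPM (log2 fold change -1.66, edgeR adjusted p = 0.0482), a call lost without E8.5 A.

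Posterior genes had large fitted changes and wide gaps between libraries of a stage. In groups 5 to 8, 5 of 10 rose in Lateral plate mesoderm and 3 of 10 in Mesenchyme, and in groups 9 to 13, 3 of 11 and 2 of 5. *Hoxc9* stood at 20.4 and 4.09 CPM at E7.5 and 207 and 186 CPM at E8.5 in Lateral plate mesoderm (log2 fold change 4.56) and missed the threshold (edgeR adjusted p = 0.086), and *Hoxc10* stood at 2.91 and 2.20 CPM at E7.5 and 178 and 68.7 CPM at E8.5 (log2 fold change 5.76, edgeR adjusted p = 0.0789). *Hoxa7*, *Hoxb9* and *Hoxc8* had log2 fold changes of 4.93, 3.797 and 4.12 and missed it as well (edgeR adjusted p = 0.111, 0.0935 and 0.0835). At E7.5, library A was above library B for 31 of the 32 tested *Hox* genes in Lateral plate mesoderm and 23 of the 24 in Mesenchyme, against 47.4% and 50% of all genes tested. Library A was also the one that mapped to the later atlas stage. The part of that difference in the *Hox* changes was not tested.

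In Mesenchyme the called *Hox* genes were *Hoxa2*, *Hoxa5*, *Hoxa7*, *Hoxa9*, *Hoxb3*, *Hoxc6*, *Hoxc9* and *Hoxd4*. *Hoxa7* stood at 0.315 and 0 CPM at E7.5 and 12.8 and 8.84 CPM at E8.5 (log2 fold change 5.63, SE 0.72, edgeR adjusted p = 7.82e-05) and *Hoxc9* at 6.30 and 3.38 CPM at E7.5 and 29.7 and 21.9 CPM at E8.5 (log2 fold change 2.38, SE 0.31, edgeR adjusted p = 1.03e-04). *Hoxb3* lost its call without E7.5 B or E8.5 A (edgeR adjusted p up to 0.253). DESeq2 called neither *Hoxb3* nor *Hoxd4* there (adjusted p = 0.175 and 0.0599). In Lateral plate mesoderm *Hoxa2*, *Hoxa5*, *Hoxa9*, *Hoxc5*, *Hoxc6*, *Hoxc11*, *Hoxd3*, *Hoxd8* and *Hoxd10* each lost theirs without at least 1 of the libraries, while other genes gained a call without E7.5 A. DESeq2 did not call *Hoxa2*, *Hoxa5* and *Hoxd3* (adjusted p = 0.156, 0.185 and 0.0553). Of the 10 tested genes of groups 5 to 8, 10 were called higher without E7.5 A and 1 without either E8.5 library, and of the 11 of groups 9 to 13, 8 were without E7.5 A and 5 without E8.5 B. In Mesenchyme 6 genes of groups 1 to 4 and 7 of groups 5 to 8 were called higher without E7.5 A, and 6 of groups 5 to 8 without E8.5 B, while 4 of groups 9 to 13 were without E7.5 A or E8.5 B.

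**Figure D3:**
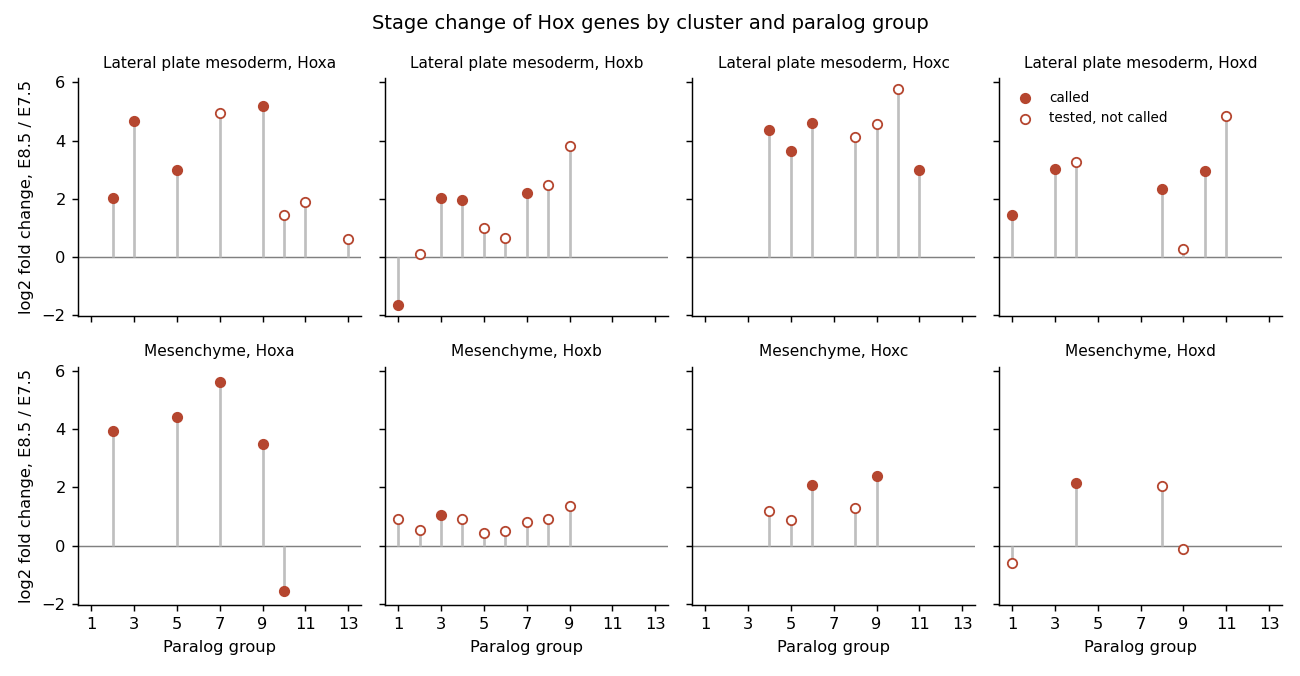
Fitted log2 fold change of E8.5 over E7.5 (vertical axis) of the tested *Hox* genes, with 1 uncalled gene not drawn, by paralog group (horizontal axis) and cluster, in Lateral plate mesoderm (top) and Mesenchyme (bottom). Filled points were called (16 of 32 and 9 of 24) and open points were not. Changes in Lateral plate mesoderm reach above 4 in all clusters but *Hoxb*, and those of the *Hoxb* cluster in Mesenchyme stay below 1.4.

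Retinoic acid is made from retinol by *Rdh10* and *Aldh1a2*, carried in the cell by Crabp proteins, broken down by Cyp26 enzymes and read by the receptors Rar and Rxr, which bind direct repeats of a short half-site. Of the 14 tested genes of the pathway 6 rose and 1, *Cyp26a1*, fell in Lateral plate mesoderm, and 10 of 16 rose and none fell in Mesenchyme. Without E8.5 B, 3 rose in Lateral plate mesoderm. The median log2 fold change of the list was 0.70 and 1.52, against -0.01 and 0.01 over all genes tested. Some members passed the filter on low counts only through E8.5, such as *Nr2f1* in Mesenchyme and *Stra6* in both types. These could only rise, so the filter bears on the counts and on the medians. *Crabp2* stood at 14.6 and 6.44 CPM at E7.5 and 111 and 72.8 CPM at E8.5 in Lateral plate mesoderm (log2 fold change 3.45, SE 0.41, edgeR adjusted p = 0.0042) and at 1.89 and 3.38 CPM at E7.5 and 26.3 and 49.7 CPM at E8.5 in Mesenchyme (log2 fold change 3.91, SE 0.44, edgeR adjusted p = 2.62e-04). In Mesenchyme *Aldh1a2* stood at 3.46 and 1.69 CPM at E7.5 and 10.8 and 21.3 CPM at E8.5 (log2 fold change 2.59, SE 0.45, edgeR adjusted p = 0.00137) and *Nr2f1*, an orphan nuclear receptor gene, at 0.315 and 0.423 CPM at E7.5 and 13.5 and 16.04 CPM at E8.5 (log2 fold change 5.22, SE 0.54, edgeR adjusted p = 1.08e-05). In Lateral plate mesoderm the stages overlapped for *Aldh1a2*, at 13.6 and 8.64 CPM at E7.5 and 14.6 and 8.71 CPM at E8.5. With every library of the type in the fit the calls of *Crabp2* in Lateral plate mesoderm and of *Aldh1a2* in Mesenchyme were lost (edgeR adjusted p = 0.0662 and 0.0836).

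The promoters of the list were searched for the direct repeat spaced by 5 bases that retinoic acid receptors are known to bind. The search took AGGTCA with its variants GGGTCA, then AGTTCA, and lastly GGTTCA as half-sites in any pair, on both strands, from 250 bases before to 50 bases after each gene's start in RefSeq (GRCm38.p6). The repeat was found in 2 of the 17 listed genes with a promoter in the table and in 32 of all 32851 promoters (0.0974%). It was chosen for what is known of these receptors, so matches in genes of their own pathway are no separate support. Whether the list held the repeat more often was not tested. The 2 genes were *Rarb*, a receptor, and *Cyp26a1*, and both stretches are shown because these genes were called with stage. In them the repeat is in capitals and the sequence is written 5′ to 3′ on the gene's strand.
Rarb, chr14:16575477-16575579, minus strand: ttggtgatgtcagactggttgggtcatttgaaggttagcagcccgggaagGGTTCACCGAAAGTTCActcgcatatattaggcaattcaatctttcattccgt
Cyp26a1, chr19:37697726-37697797, plus strand: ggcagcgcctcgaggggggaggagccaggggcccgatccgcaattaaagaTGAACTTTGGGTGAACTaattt
In *Rarb* the repeat lies on the gene's strand, from 53 to 37 bases before the start, and in *Cyp26a1* it lies on the opposite strand, from 32 to 16 bases before the start. A match describes the letters in the window and not binding.

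*Rarb* stood at 0.630 and 2.12 CPM at E7.5 and 10.1 and 9.16 CPM at E8.5 in Mesenchyme (log2 fold change 2.91, SE 0.51, edgeR adjusted p = 0.00113), with both E8.5 libraries above both E7.5 libraries, and had too few UMIs to be tested in Lateral plate mesoderm. *Cyp26a1* fell in Lateral plate mesoderm, from 23.8 and 11.9 to 3.02 and 4.61 CPM (log2 fold change -2.01, SE 0.45, edgeR adjusted p = 0.0048), and lost that call without E8.5 A (edgeR adjusted p = 0.0986). In Mesenchyme it rose, from 11.7 and 7.61 to 35.4 and 22.9 CPM (log2 fold change 1.59, SE 0.28, edgeR adjusted p = 0.00131). Of the 31 genes with the repeat, 3 could be tested in Mesenchyme, and the 2 that rose were *Rarb* and *Cyp26a1*. In Lateral plate mesoderm 2 could be tested, and the 1 that fell was *Cyp26a1*. Of all genes tested, 6.12% rose in Mesenchyme and 4.19% fell in Lateral plate mesoderm. These counts restate the 2 genes above and are too small to compare with those shares.

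Of extracellular matrix genes, many rose in Mesenchyme, 19 of 43 tested with 2 lower (median log2 fold change 1.49), while 10 rose and 7 fell among the 33 tested in Lateral plate mesoderm (median -0.29). Here too, members that passed the filter on low counts only through E8.5, such as *Col11a1* in Mesenchyme, could only rise. In Lateral plate mesoderm 5 rose without E7.5 B or E8.5 A, and 4 fell without E8.5 A. *Col1a2*, which encodes a chain of the fibrillar collagen I, stood at 30.9 and 16.5 CPM at E7.5 and 333 and 196 CPM at E8.5 in Mesenchyme (log2 fold change 3.46, SE 0.48, edgeR adjusted p = 0.0308) and at 5.34 and 3.77 CPM at E7.5 and 19.6 and 21.01 CPM at E8.5 in Lateral plate mesoderm (log2 fold change 2.34, SE 0.33, edgeR adjusted p = 3.73e-05). *Col23a1*, which encodes a transmembrane collagen, rose in both, by log2 fold changes of 1.88 and 2.34. *Lama4*, a laminin chain gene of basement membranes, fell in both, although in Mesenchyme it dropped under the fold threshold without E7.5 A (log2 fold change -0.86), and in Lateral plate mesoderm stood at 24.3 and 19.01 CPM at E7.5 and 3.53 and 3.59 CPM at E8.5 (log2 fold change -2.46, SE 0.36, edgeR adjusted p = 5.27e-05). Whether the share of the list called differed between the types was not tested.

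Among signalling genes, FGF ligands fell in both types beyond *Fgf3*. The FGF list had 3 higher and 4 lower of 15 tested in Lateral plate mesoderm, where the targets *Dusp6*, *Spred2* and *Etv4* rose, and 0 higher and 5 lower of 14 in Mesenchyme. Without E7.5 B none of the list rose in Lateral plate mesoderm, and without E7.5 A 5 rose, while in Mesenchyme 2 fell without E7.5 A and 3 without E8.5 A. The BMP list had 0 higher and 5 lower of 17 in Lateral plate mesoderm and 4 higher, namely *Id1*, *Id2*, *Id4* and *Bambi*, and 1 lower of 18 in Mesenchyme. Without E8.5 A, 2 were higher in Mesenchyme. *Bmp7*, a ligand gene, fell in both, and stood at 30.1 and 32.5 CPM at E7.5 and 3.53 and 9.73 CPM at E8.5 in Lateral plate mesoderm (log2 fold change -2.16, SE 0.32, edgeR adjusted p = 1.07e-04) and at 28.7 and 24.5 CPM at E7.5 and 5.74 and 11.1 CPM at E8.5 in Mesenchyme (log2 fold change -1.63, SE 0.29, edgeR adjusted p = 0.00116). *Id2*, a target of BMP signalling, stood at 30.2 and 44.0 CPM at E7.5 and 193 and 180.3 CPM at E8.5 in Mesenchyme (log2 fold change 2.38, SE 0.16, edgeR adjusted p = 1.92e-07).

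The Wnt list had 5 higher and 3 lower of 18 tested in Lateral plate mesoderm and 7 higher and 1 lower of 20 in Mesenchyme. Without E7.5 B none was lower in Lateral plate mesoderm. *Sfrp2*, which encodes a secreted inhibitor of Wnt ligands, stood at 8.25 and 9.59 CPM at E7.5 and 50.9 and 27.7 CPM at E8.5 in Lateral plate mesoderm (log2 fold change 2.19, SE 0.29, edgeR adjusted p = 8.42e-05) and at 3.46 and 3.81 CPM at E7.5 and 18.2 and 18.3 CPM at E8.5 in Mesenchyme (log2 fold change 2.35, SE 0.32, edgeR adjusted p = 1.36e-04). *Sfrp1*, which encodes a related inhibitor, stood at 7.24 and 12.3 CPM at E7.5 and 207 and 167 CPM at E8.5 in Mesenchyme (log2 fold change 4.33, SE 0.21, edgeR adjusted p = 1.05e-08), while its Lateral plate mesoderm libraries overlapped between the stages at 18.4 and 42.3 CPM at E7.5 and 18.1 and 38.4 CPM at E8.5. The shares of cells with *Sfrp1* were 10.98% and 12.2% at E7.5 and 61.8% and 56.3% at E8.5 in Mesenchyme, against 1.88% and 6.11% of Erythroid cells.

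Cardiac genes fell in Lateral plate mesoderm, 8 of 15 tested with 1 higher (median log2 fold change -2.14), and in Mesenchyme 4 of 18 rose and 2 fell (median 0.50). Cells labelled Cardiopharyngeal progenitors FHF numbered 0 in both E7.5 libraries and 52 and 60 at E8.5. Those labelled Cardiopharyngeal progenitors SHF numbered 5 and 19 at E7.5 and 18 and 33 at E8.5. A loss of cardiac RNA within cells and a change in which cells carry the Lateral plate mesoderm label cannot be told apart. In Mesenchyme 8 rose without E7.5 A and 7 without E7.5 B. *Tbx20*, a T-box gene of the heart field, stood at 43.7 and 56.4 CPM at E7.5 and 3.02 and 6.15 CPM at E8.5 in Lateral plate mesoderm (log2 fold change -3.38, SE 0.30, edgeR adjusted p = 1.27e-07) and at 63.6 and 55.8 CPM at E7.5 and 68.9 and 51.4 CPM at E8.5 in Mesenchyme, where the stages overlapped. *Mef2c*, a MADS-box gene of cardiac and vascular precursors, stood at 27.7 and 33.9 CPM at E7.5 and 3.02 and 3.07 CPM at E8.5 in Lateral plate mesoderm (log2 fold change -3.26, SE 0.33, edgeR adjusted p = 7.80e-07). *Tbx5*, a T-box gene of heart and forelimb, rose in Mesenchyme and stood at 1.89 and 1.69 CPM at E7.5 and 19.6 and 14.7 CPM at E8.5 there (log2 fold change 3.24, SE 0.39, edgeR adjusted p = 4.69e-05).

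Called blood and endothelial genes were mostly lower at E8.5, 4 of 11 with 1 higher in Lateral plate mesoderm and 5 of 13 with 1 higher in Mesenchyme. Without E7.5 B, 2 were lower in Lateral plate mesoderm. The higher genes were *Lmo2* in Lateral plate mesoderm, at 5.82 and 8.49 CPM at E7.5 and 55.4 and 32.3 CPM at E8.5 (log2 fold change 2.60, SE 0.29, edgeR adjusted p = 1.31e-05), and *Tek*, a receptor of angiopoietins, in Mesenchyme, at 9.13 and 4.23 CPM at E7.5 and 65.2 and 51.1 CPM at E8.5 (log2 fold change 3.07, SE 0.27, edgeR adjusted p = 4.09e-06). The 6 endothelial markers of the check summed to 37.9 and 72.0 CPM at E7.5 and 6.05 and 46.6 CPM at E8.5 in Lateral plate mesoderm, and to 23.9 and 40.2 CPM and 19.9 and 35.7 CPM in Mesenchyme. These sums overlapped between the stages in both types.

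Of imprinted genes, which are expressed from 1 parental allele and include regulators of fetal growth, 8 rose and 1 fell of 28 in Lateral plate mesoderm, and 8 rose and none fell of 30 in Mesenchyme. Without E7.5 B, 3 rose in Lateral plate mesoderm, and in Mesenchyme 1 or 2 fell in each fit without 1 library. *Igf2*, the growth factor, stood at 158 and 166 CPM at E7.5 and 507 and 398 CPM at E8.5 in Lateral plate mesoderm (log2 fold change 1.57, SE 0.12, edgeR adjusted p = 6.90e-08) and at 371 and 351 CPM at E7.5 and 882 and 608 CPM at E8.5 in Mesenchyme (log2 fold change 1.07, SE 0.16, edgeR adjusted p = 0.00165), where it dropped under the fold threshold without E8.5 A (log2 fold change 0.78). *Nnat*, which encodes a small membrane protein, stood at 42.7 and 39.8 CPM at E7.5 and 83.6 and 108 CPM at E8.5 in Lateral plate mesoderm (log2 fold change 1.31, SE 0.16, edgeR adjusted p = 6.03e-06) and at 65.8 and 41.5 CPM at E7.5 and 443 and 413 CPM at E8.5 in Mesenchyme (log2 fold change 3.0008, SE 0.17, edgeR adjusted p = 1.72e-06). *Zim1*, a zinc finger gene, rose in Mesenchyme, at 6.30 and 5.92 CPM at E7.5 and 55.7 and 37.3 CPM at E8.5 (log2 fold change 2.94, SE 0.27, edgeR adjusted p = 3.15e-06).

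Immediate-early genes respond to many stimuli, dissociation of tissue among them. Of the list of dissociation stress genes 7 of 15 rose and 2 fell in Lateral plate mesoderm, and 8 of 17 rose and 1 fell in Mesenchyme. *Jun* stood at 22.0 and 30.04 CPM at E7.5 and 201 and 157 CPM at E8.5 in Mesenchyme (log2 fold change 2.83, SE 0.18, edgeR adjusted p = 1.53e-07) and at 19.4 and 33.2 CPM at E7.5 and 64.5 and 48.7 CPM at E8.5 in Lateral plate mesoderm (log2 fold change 1.10, SE 0.23, edgeR adjusted p = 0.00501). *Fos* stood at 4.72 and 5.50 CPM at E7.5 and 49.3 and 43.2 CPM at E8.5 in Mesenchyme (log2 fold change 3.21, SE 0.24, edgeR adjusted p = 5.89e-07) and at 5.34 and 6.29 CPM at E7.5 and 14.1 and 11.3 CPM at E8.5 in Lateral plate mesoderm (log2 fold change 1.17, SE 0.34, edgeR adjusted p = 0.0186). In Lateral plate mesoderm *Fos* lost its call without E7.5 A, E7.5 B or E8.5 A (edgeR adjusted p up to 0.212) and with DESeq2 (adjusted p = 0.262), and *Jun* without E7.5 A or E8.5 A (log2 fold change 0.86 and 0.89). The summed level of the 19 listed genes was 5808 and 5271 CPM at E7.5 and 4882 and 5268 CPM at E8.5 in Lateral plate mesoderm, where the B libraries were nearly level, and 5607 and 4993 CPM against 4547 and 5143 CPM in Mesenchyme, where the stages overlapped. The part of dissociation in these genes was not tested.

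Of the cell cycle list 0 of 33 genes were called in Lateral plate mesoderm and 2 of 34, *Ccnd1* and *Cdk6*, fell in Mesenchyme, where 1 gene of the list fell without E8.5 A. Of oxidative phosphorylation genes 1 of 80, *Cox4i2*, rose in Lateral plate mesoderm, a call lost without E8.5 A, and 0 of 81 were called in Mesenchyme. Of glycolysis and hypoxia genes 2 of 28 and 3 of 28 fell, with *Egln3* and *Pfkp* in both types and *Vegfa* in Mesenchyme, beside 4.19% and 2.48% of all genes tested. Without E8.5 A, 4 fell in Lateral plate mesoderm, and without E7.5 A, 5 fell in Mesenchyme. Median log2 fold changes of these lists lay between -0.46 and 0.17.

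Of the remaining lists, Notch pathway genes had 1 higher and 2 lower of 9 in Lateral plate mesoderm and 0 of 7 called in Mesenchyme, Hedgehog genes 0 of 7 and 1 of 10, *Gas1*, higher, and Nodal genes 1 of 7, *Furin*, lower and 0 of 7. Lin28 and let-7 genes had 1 of 13, *Mycn*, higher in Lateral plate mesoderm and 2 of 13, *Trim71* and *Lin28a*, lower in Mesenchyme. *Trim71*, a let-7 target that marks early embryonic cells, stood at 338 and 405 CPM at E7.5 and 97.6 and 133 CPM at E8.5 in Mesenchyme (log2 fold change -1.65, SE 0.15, edgeR adjusted p = 3.45e-05). DNA methylation genes had 0 higher and 1 lower of 14 and 2 higher and 1 lower of 14, p53 targets 1 and 2 of 13 and 2 and 0 of 15, and Myc family genes 1 and 0 of 10 and 1 and 0 of 11, in Lateral plate mesoderm and Mesenchyme in turn. Of 12 cadherin and epithelial-mesenchymal genes in Lateral plate mesoderm, 2 were higher, *Zeb1* and *Cdh3*, and 4 lower, *Epcam*, *Krt8*, *Zeb2* and *Krt18*. In Mesenchyme 2 were higher and 0 lower of 13. Without E8.5 A, 1 was lower in Lateral plate mesoderm. MHC class I and interferon-type genes had 2 higher and 3 lower of 10 and 2 higher and 0 lower of 8. Trophoblast genes had 1 higher and 5 lower of 9 in Lateral plate mesoderm and 0 and 2 of 10 in Mesenchyme, with 3 lower in Lateral plate mesoderm without E8.5 A. The lower trophoblast genes were *Gata2*, *Hand1*, *Rhox5*, *Fgfr2* and *Plac1* in Lateral plate mesoderm and *Cdx2* and *Gata2* in Mesenchyme. Of these, *Gata2*, *Hand1*, *Fgfr2* and *Cdx2* are also on the blood, mesodermal or FGF lists, so they are no measure of trophoblast RNA alone. Endoderm regulators had 0 and 1 of 5 and 1 and 1 of 5, and neural and ectoderm regulators 2 and 1 of 5 and 1 and 0 of 6. Many counts of 1 or 2 in these lists moved when 1 library was left out. Over such fits 0 to 1 Notch genes were lower in Lateral plate mesoderm, 0 to 1 DNA methylation genes were higher in Mesenchyme, 0 to 2 p53 targets were lower in Lateral plate mesoderm, 0 to 2 MHC class I and interferon-type genes were higher there, and 1 to 4 neural and ectoderm regulators were higher in Mesenchyme.

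**Figure D4:**
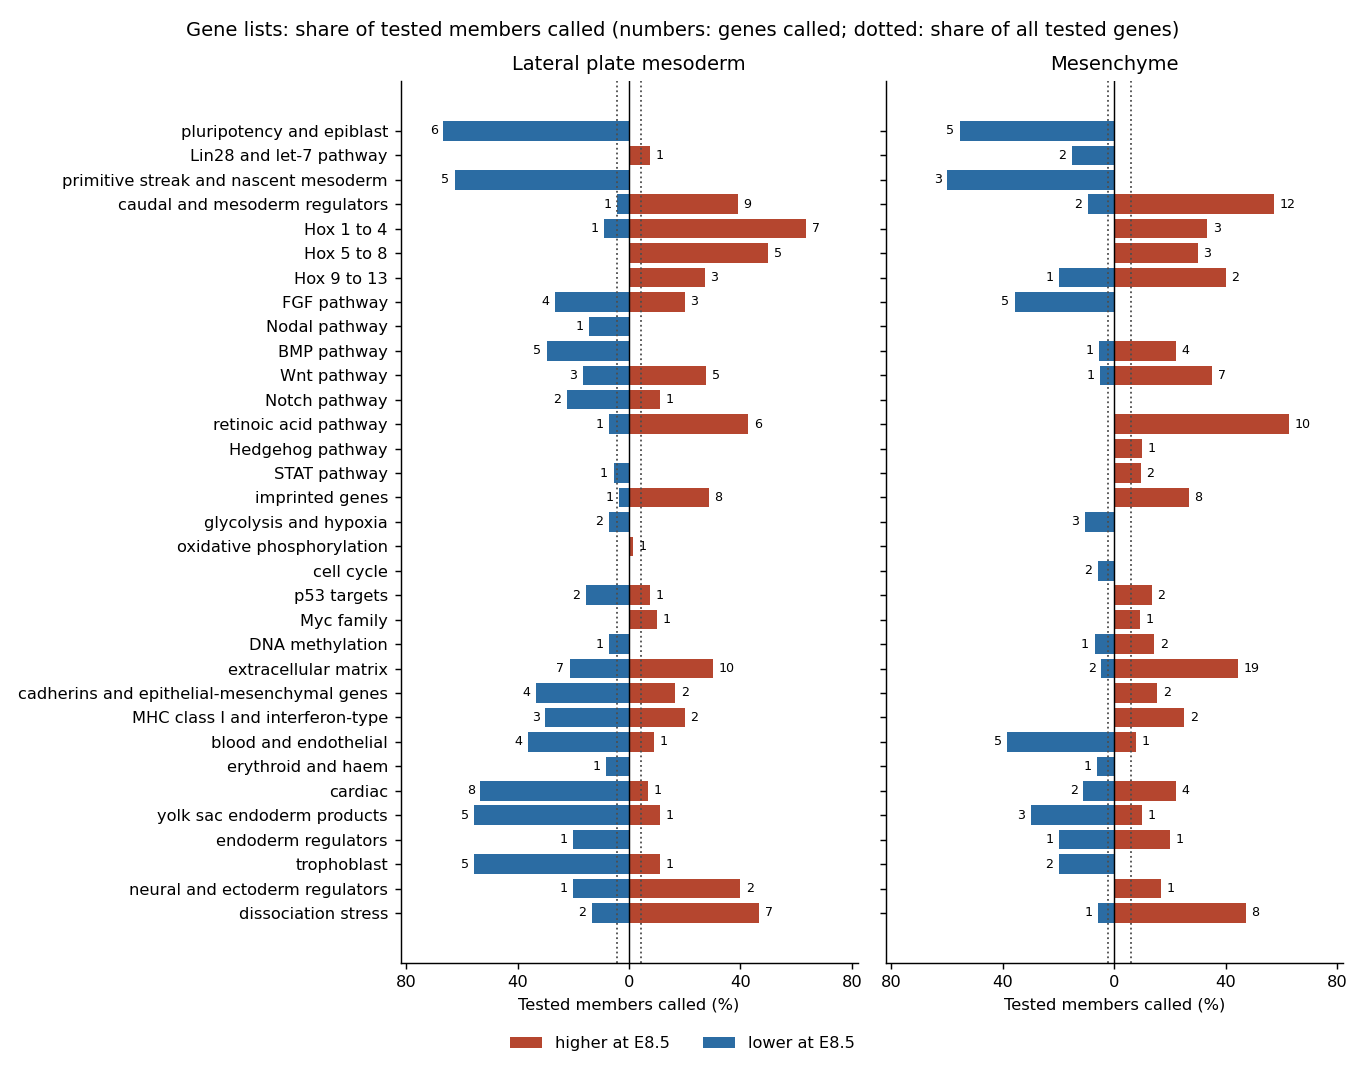
Share of the tested members of each gene list called higher (right) or lower (left) at E8.5 (horizontal axis, % of tested members) in Lateral plate mesoderm and Mesenchyme, with the number of genes called beside each bar. Dotted lines mark the share of all tested genes called in that direction (4.29% and 4.19% in Lateral plate mesoderm, 6.12% and 2.48% in Mesenchyme). Pluripotency and streak lists lie to the left in both types, and *Hox*, mesodermal and retinoic acid lists lie mostly to the right. A gene that passed the filter on low counts only through E7.5 could only fall, and a gene that did so only through E8.5 could only rise.

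The gene deleted in the donor cells passed no test in the host cells. *Stat3* stood at 6.31 and 5.50 CPM at E7.5 and 6.05 and 6.66 CPM at E8.5 in Lateral plate mesoderm (log2 fold change 0.23, SE 0.39, edgeR adjusted p = 0.735) and at 6.61 and 5.92 CPM at E7.5 and 3.71 and 3.60 CPM at E8.5 in Mesenchyme (log2 fold change -0.75, SE 0.42, edgeR adjusted p = 0.224). At this depth the level rested on 11 to 35 UMIs a library. In the null libraries of the same types *Stat3* stood between 0 and 2.03 CPM. Of the STAT pathway list 1 of 18, *Stat6*, fell in Lateral plate mesoderm (lost without E7.5 B, edgeR adjusted p = 0.0562, and with DESeq2, adjusted p = 0.0784), and 2 of 21, *Cntfr* and *Pias3*, rose in Mesenchyme, where 1 gene of the list rose without E8.5 A.

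The stage change was compared between the types by the interaction of stage and type, with the library as a block. Of 9938 genes 547 differed (5.5%), 418 with a more positive change in Mesenchyme and 129 with a more negative one, and 289 of the 547 had fitted changes of opposite sign. In the tests within types 15 of the 547 were called in opposite directions, 13 of them lower in Lateral plate mesoderm and higher in Mesenchyme. These were *Wnt2*, *Fst*, *Serpinb6b*, *Serpinb9*, *Gata5*, *Cyp26a1*, *Cryab*, *Me1*, *Lhfp*, *Mbnl3*, *Fbn1*, *Txnip* and *Rnd2*. The 2 others, *Efcc1* and *Pknox2*, rose in Lateral plate mesoderm and fell in Mesenchyme.

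*Wnt2*, which encodes a Wnt ligand (chromosome 6, 17988940 to 18030585), stood at 11.6 and 11.8 CPM at E7.5 and 2.52 and 4.61 CPM at E8.5 in Lateral plate mesoderm (log2 fold change -1.62, SE 0.40, edgeR adjusted p = 0.00695) and at 10.4 and 11.4 CPM at E7.5 and 167 and 106 CPM at E8.5 in Mesenchyme (log2 fold change 3.67, SE 0.25, edgeR adjusted p = 6.82e-06). The types held like levels at E7.5 and parted by E8.5 (log2 difference of the changes 5.26, SE 0.40, edgeR adjusted p = 2.19e-10). *Wnt2* was found in 12.2% of the Mesenchyme cells of either E7.5 library and in 77.5% and 59.4% at E8.5, and in Lateral plate mesoderm in 11.5% and 9.62% at E7.5 and 1.59% and 4.00% at E8.5, against 0.470% and 0.804% of Erythroid cells. Its call in Lateral plate mesoderm was lost without E7.5 B or E8.5 A (edgeR adjusted p = 0.0979 and 0.136) and with DESeq2 (adjusted p = 0.167).

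*Fst*, which encodes follistatin, an inhibitor of activin, stood at 13.6 and 28.9 CPM at E7.5 and 1.01 and 4.10 CPM at E8.5 in Lateral plate mesoderm (log2 fold change -3.07, SE 0.57, edgeR adjusted p = 0.00572) and at 2.52 and 6.77 CPM at E7.5 and 19.2 and 20.9 CPM at E8.5 in Mesenchyme (log2 fold change 2.21, SE 0.36, edgeR adjusted p = 5.98e-04). *Gata5*, a zinc finger gene of heart and endoderm, stood at 15.5 and 15.2 CPM at E7.5 and 2.02 and 4.10 CPM at E8.5 (log2 fold change -2.23, SE 0.40, edgeR adjusted p = 4.69e-04) and at 6.30 and 7.61 CPM at E7.5 and 18.9 and 22.6 CPM at E8.5 (log2 fold change 1.61, SE 0.28, edgeR adjusted p = 9.64e-04). Both genes kept their calls whichever library was left out, although *Fst* in Mesenchyme was not called with every library of the type in the fit (edgeR adjusted p = 0.281). *Serpinb6b*, a protease inhibitor gene, also kept both calls, at 16.99 and 11.5 CPM at E7.5 and 0.504 and 1.02 CPM at E8.5 in Lateral plate mesoderm and 9.13 and 10.6 CPM at E7.5 and 53 and 38.0 CPM at E8.5 in Mesenchyme. *Serpinb9*, of the same gene cluster, had no UMI at E8.5 in Lateral plate mesoderm, at least 12.7-fold lower than at E7.5 (a floor of 3 UMIs over the stage), and its rise in Mesenchyme was lost without E7.5 A, E7.5 B or E8.5 A (edgeR adjusted p up to 0.406). Serpinb genes are close copies of each other, and how reads matching several of them were counted was not given in the sources used here.

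Of the rest, *Me1*, which encodes malic enzyme, was called in both types whichever library was left out, but not by DESeq2 in Lateral plate mesoderm (adjusted p = 0.0609). *Fbn1*, *Mbnl3*, *Txnip*, *Cryab*, *Rnd2*, *Efcc1*, *Pknox2* and *Lhfp* were called in opposite directions with all libraries, but at least 1 of the 2 calls was lost without at least 1 library. For *Fbn1*, *Mbnl3*, *Txnip* and *Cryab* the call in Lateral plate mesoderm was lost without any 1 of the 4 (edgeR adjusted p up to 0.490, 0.155, 0.211 and 0.345).

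**Figure D5:**
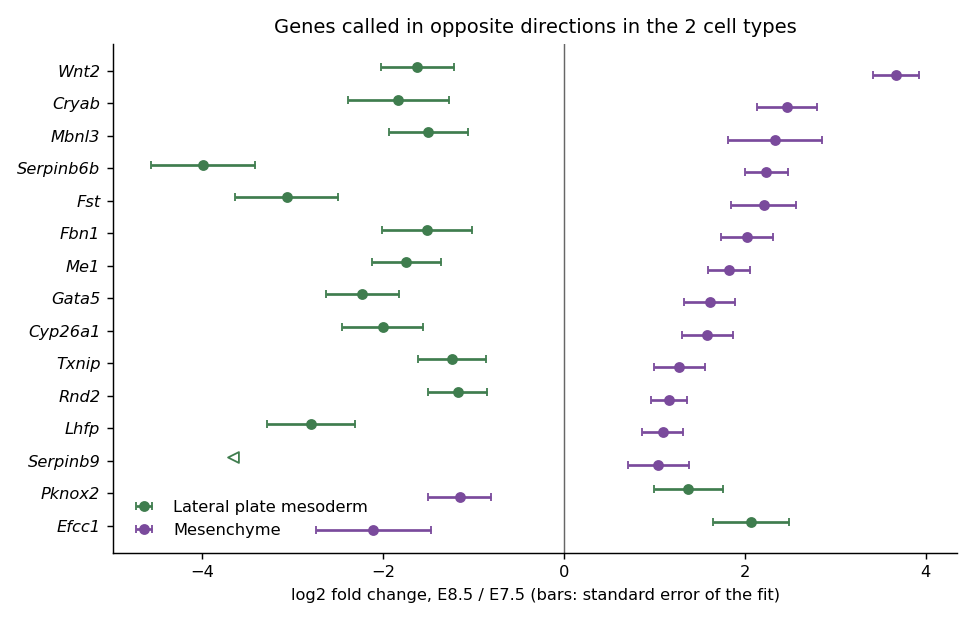
Fitted log2 fold change of E8.5 over E7.5 (horizontal axis, bars show the standard error) of the 15 genes called in opposite directions in Lateral plate mesoderm and Mesenchyme. The triangle marks *Serpinb9* in Lateral plate mesoderm at its bound, since it had no UMI at E8.5 there. Of the 15 genes 13 lie left of 0 in Lateral plate mesoderm and right of 0 in Mesenchyme.

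Other genes differed between the types without opposite calls. *Hand1* changed more in Lateral plate mesoderm, from 769 and 619 to 101 and 133 CPM, than in Mesenchyme, where it stood at 759 and 753 CPM at E7.5 and 450.0 and 468 CPM at E8.5 (log2 difference 1.77, SE 0.12, edgeR adjusted p = 7.25e-10). *Ahnak*, which encodes a large scaffold protein, fell in Lateral plate mesoderm (log2 fold change -3.22, SE 0.17, edgeR adjusted p = 6.86e-11) and was not called in Mesenchyme (log2 difference 3.09, SE 0.21, edgeR adjusted p = 1.78e-07). *Cdx2* went the other way, with a larger fall in Mesenchyme and overlapping stages in Lateral plate mesoderm at 297 and 130.3 CPM at E7.5 and 115 and 146 CPM at E8.5 (log2 difference -2.56, SE 0.28, edgeR adjusted p = 3.77e-05). *Plagl1*, *Tbx5*, *Sfrp1*, *Gata4* and *Tbx20* changed more positively in Mesenchyme, by log2 differences of 5.23, 4.71, 4.28, 3.85 and 3.40, and *Ndnf*, *Hoxc4* and *Gata3* more positively in Lateral plate mesoderm, by log2 differences (Mesenchyme minus Lateral plate mesoderm) of -2.59, -2.60 and -2.32. The difference of *Hoxc4* was not called without E7.5 A (edgeR adjusted p = 0.229).

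RNA of blood cells marked both types at E8.5. Haemoglobin RNA, which belongs to erythroid cells and was left out of the tests, summed to 9.22 and 4.09 CPM at E7.5 and 1282 and 1332 CPM at E8.5 in Lateral plate mesoderm, and to 7.56 and 6.35 CPM and 1344 and 1057 CPM in Mesenchyme. *Hba-x*, the embryonic alpha globin, was found in 98.4% and 100% of E8.5 Lateral plate mesoderm cells and 100% and 99.4% of E8.5 Mesenchyme cells after thinning, and in 3.85% and 0.481% and 1.22% and 0% (0 of 82, which allows up to 3.66%) at E7.5. Of the 26 erythroid and haem genes other than globins 12 and 16 could be tested, and 1 in each type was called, *Cpox* and *Car2*, both lower at E8.5. The part of RNA from erythroid cells in the other results was not tested.

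RNA of yolk sac endoderm products went down over the same day, from sums of 378 and 519 CPM to 72.5 and 101 CPM in Lateral plate mesoderm and from 439 and 596 to 255 and 256 CPM in Mesenchyme. Of these genes 5 of 9 tested fell and 1 rose in Lateral plate mesoderm, with *Apoe*, *Apoc1* and *Ttr* among the lower, and 3 of 10 fell and 1 rose in Mesenchyme. *Apoc1* and *Ttr* lost their calls in Lateral plate mesoderm without E7.5 B (edgeR adjusted p = 0.0932 and 0.333), and *Ttr* also without E8.5 A (0.110). In Mesenchyme *Apoa1* lost its call without E7.5 B or E8.5 A (edgeR adjusted p = 0.392 and 0.160). Without E7.5 B or E8.5 A, 3 fell in Lateral plate mesoderm, and in Mesenchyme 5 fell without E7.5 A and 6 without E8.5 B. The list counts *Cyp26a1* and *Rbp4* among its members. *Apoe* was found in 92.1% and 98.2% of ExE ectoderm cells and in 75.0% and 90.9% of E7.5 Lateral plate mesoderm cells after thinning. The part of RNA from other cells in the falls of these genes was not tested.

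*Stat3* null cells of the same types and stages were tested in the same way, with 326 and 80 cells in the E7.5 libraries and 191 and 71 in the E8.5 libraries. They had 504 calls of 8967 genes in Lateral plate mesoderm (5.62%) and 751 of 9223 in Mesenchyme (8.14%). Of the host calls that could be fitted in null cells, 676 of 684 in Lateral plate mesoderm and 718 of 722 in Mesenchyme had the same sign, 367 and 481 were called in the same direction, and 0 in the opposite one. The interaction of stage and genotype called 0 of 9329 genes in Lateral plate mesoderm (0%), with 254 at an unadjusted p under 0.05 and a smallest adjusted p of 0.190, and 0 of 9973 in Mesenchyme (0%), with 232 and 0.422. DESeq2 called 0 in either. Without 1 null library, E8.5 null A, edgeR called 3 and 2.

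By way of example, null Lateral plate mesoderm held *Prrx1* at 10.4 and 4.97 CPM at E7.5 and 107 and 83.5 CPM at E8.5, *Mesp1* at 129 and 109 CPM and 0.466 and 0.994 CPM, and *Nr2f2* at 2.66 and 0 CPM and 85.8 and 41.7 CPM. Null Mesenchyme held *Postn* at 6.997 and 1.97 CPM and 561 and 361 CPM, and *Wnt2* at 10.8 and 4.91 CPM and 95.5 and 119.8 CPM. In each case the null libraries were ordered by stage as the host libraries were. Host and null libraries of a stage came from the same embryo pools, but the test took them as independent, since a library could not be tied to its pool. That the test called no gene does not show that the changes were equal.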

How the data were processed

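The members and the gene lists were chosen with earlier results of these data known. Single-cell libraries were made by the authors with the 10x 3′ v3 kit from cells sorted on tdTomato. Per the labels and the study's methods, UMI counts were produced with Cell Ranger on mm10 with tdTomato added. The deposited counts are whole UMIs per gene and cell, not normalized. The authors also deposited the percent of mitochondrial UMIs per cell, and the score (a fraction of neighbours) of the cell type transferred from a gastrulation atlas. Cells called doublets (788 in the 4 WT libraries) and 46 WT cells with a tdTomato UMI were left out. 0 columns of per-sample values were left unmatched. Each library took its group from the stage and tdTomato sort recorded for its cells, since its name could not be tied to a sample, and its replicate number was not used.

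Counts were summed per library and type. Genes left out were those with symbols of predicted genes, ribosomal, mitochondrial, haemoglobin and sex-linked marker genes (8178 of 29453). Tests used edgeR 4.0.16 (TMM, filterByExpr, quasi-likelihood) with limma 3.58.1, DESeq2 1.42.0 and R 4.3.3, with Benjamini-Hochberg adjustment within each comparison. SE was the log2 fold change divided by the root of F. For the sum of both types each type was thinned to 1951741 (Lateral plate mesoderm) or 2363800 (Mesenchyme) UMIs per library. Shares of cells were computed after thinning each cell to 10000 UMIs, and no cell was shallower. Shares, intervals and floors cover counting error only. Gene coordinates came from GENCODE vM21 (GRCm38), and promoters from RefSeq.

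On simulated counts with 200 changed genes, changes of log2 2 were recovered at 93% in Lateral plate mesoderm (8844 genes) and 93% in Mesenchyme (9589 genes), and changes of log2 1.5 at 64% and 54%. Unchanged genes were called 9 and 3 times. Every gene was simulated with the same spread between libraries, and only genes above a floor of UMIs were changed. Recovery of scarce genes, or of genes with wide gaps between libraries such as posterior *Hox* genes, was not tested.

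Named genes were the 10 with the largest called change in each direction per type and in the sum, with at least 20 CPM in the higher stage and stages apart, up to 6 called members per list, and *Stat3* and *Hba-x*. Genes outside that rule, among them *Rarb*, *Aldh1a2*, *Twist1*, *Tbx20*, *Tbx5*, *Sfrp1*, *Hand1*, *Ahnak*, single *Hox* genes and the genes called in opposite directions, were chosen after their values were seen. The values of 1 *Hox* gene are not reported here. No set test was run. Levels are not compared between genes.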

Additional observations from a re-analysis of the deposited data

Results flagged for a closer look

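The stage change differed between Mesenchyme and Lateral plate mesoderm for 547 genes by the interaction test of edgeR. The following values are log2 differences, Mesenchyme minus Lateral plate mesoderm, of the genes named in the report.

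Among genes called in opposite directions, the difference was 5.26 for *Wnt2*, 5.09 for *Fst*, 6.24 for *Serpinb6b*, 3.82 for *Gata5*, 3.71 for *Cyp26a1* and 4.50 for *Cryab*. It was 3.60 for *Me1*, 3.87 for *Lhfp*, 3.81 for *Mbnl3*, 3.39 for *Fbn1*, 2.53 for *Txnip* and 2.42 for *Rnd2*. It was negative for *Efcc1* at -3.95 and *Pknox2* at -2.49. For *Serpinb9* it was 8.90, a fitted value that depends on the prior count since both E8.5 libraries of Lateral plate mesoderm were at 0.

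Of developmental regulators, *Gata4* differed by 3.85, *Tbx20* by 3.40, *Tbx5* by 4.71, *Hand1* by 1.77, *Twist1* by 2.56 and *Meis1* by 2.34, while *Cdx2* differed by -2.56, *Gata3* by -2.32 and *Hoxc4* by -2.60. Of other genes, *Plagl1* differed by 5.23, *Sfrp1* by 4.28, *Ahnak* by 3.09, *Aldh1a2* by 2.45, *Nnat* by 1.76, *Fos* by 1.97, *Jun* by 1.61 and *Ndnf* by -2.59. *Aldh1a2* was not called without E8.5 B (edgeR adjusted p = 0.0867).

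Haemoglobin RNA, outside the genes tested, had a mean of 1306.87 summed CPM at E8.5 in Lateral plate mesoderm and 1200.56 in Mesenchyme, above the E7.5 libraries by ratios of 196 and 173.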

How the results depend on the processing

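No paired analysis was possible because the library names carry no replicate number or pool and the embryos of the stages differ. DESeq2 called 453 genes in Lateral plate mesoderm, 530 in Mesenchyme and 536 in the sum of both, against 755, 831 and 833. Without the fold threshold 1638, 1974 and 2155 were called. Leaving out 1 library gave 465 to 773, 648 to 1010 and 582 to 989 calls, and 368 to 666 for the difference between the types. In such fits 1 stage has a single library, assumed to vary like the other. Between host and null cells these fits called 0 to 3 genes in Lateral plate mesoderm and 0 to 2 in Mesenchyme. The abundance test called 36 types, 62 with library totals in place of TMM, 60 by DESeq2 and 17 to 62 without 1 library, where the log2 fold change ran from -1.84 to -0.55 for Lateral plate mesoderm and from -0.55 to 0.19 for Mesenchyme, turning positive without E7.5 A (0.19, adjusted p = 0.468). The cause of these shifts was not tested, apart from the fold threshold itself. limma-voom, other filters, equal cell numbers, every library of a type in the fit, kept tdTomato-UMI cells and a plain sum of the types left the counts within 1.5 times. A cell type score over 0.5, chosen after seeing the data, did so too. The fit with every library of a type also held its *Stat3* null and E9.5 libraries with enough cells. For named genes 4004 of 4394 values kept their direction and call, 390 kept the direction and lost the call, and none reversed. Of the values that kept both, 337 came from dropping the fold threshold, which reused the main fit and could not end a call. Genes that dropped out of a fit were not counted. The difference in mean atlas stage ranged from 0.790 to 0.997 days without 1 library. *Stat3* rested on 11 to 35 UMIs a library, which limits what its test can show.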
